A study of Mus musculus with 12 samples.

Results

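The genes described here encode proteins that sit on the lipid droplet, the store of triglyceride inside a cell, or that empty it: the perilipins Plin1, Plin2, Plin3, Plin4 and Plin5, the CIDE proteins Cidea and Cidec, and the lipases Pnpla2, Lipe and Mgll. They were selected by gene symbol, with earlier results of these data known. All 10 were found among 19938 genes measured, each with 1 probe set. The study measured RNA of whole kidneys of 3-week-old mice on 12 microarrays in 4 groups of 3 arrays. Pparg null mice, written PpargΔ/Δ in the labels, lack the nuclear receptor PPARγ; their strain is labelled Mixed C57BL6/SV129. Their controls, called mixed controls below, have the same mixed background. AZIP mice are on the FVB background and are known to lack white fat because a transgene, driven in fat cells by the Fabp4 promoter, blocks the transcription factors that form them. FVB controls are their reference. All groups share the age and the tissue, and every array was hybridised with pooled RNA of 3 mice, 36 mice in all, so the spread between arrays may be smaller than that between single mice. The sources used here do not say how Pparg was deleted, in which cells, or of which sex the mice were.

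Perilipins coat the droplet and control which enzymes reach the fat inside. Triglyceride is broken down in a chain: Pnpla2, also called ATGL, removes the first fatty acid, Lipe, the hormone-sensitive lipase, the next, and Mgll, the monoglyceride lipase, the last. CIDE proteins join small droplets into large ones and are best known from fat cells. In the kidney the proximal tubule burns fatty acids for its transport work and keeps droplets as a short-term store. Several of these genes, Plin2 and Plin5 among them, are known targets of PPAR receptors, nuclear receptors that fatty acids activate.

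Values below are log2 signals as deposited, and a difference is a mutant mean minus its control mean on that scale. Its error is the SE from limma, fitted over all 12 arrays and all genes, and a call means a limma adjusted p under 0.05. Signals of different probe sets are not on a common scale, so no gene's level was set against another's. Percentiles of mean level among all genes serve below only to mark low signals. Medians of the 12 arrays ran from 7.17 to 7.21, and the correlations across genes between arrays of the same group from 0.996 to 0.998. Markers of proximal tubule averaged between 11.93 and 12.35 on the 12 arrays, so the labelled tissue was present on each. The Pparg probe set read 8.002, 8.19 and 8.01 in Pparg null kidneys, against 7.90, 7.97 and 8.02 in mixed controls, with 0.11 ± 0.06 as the difference (limma adjusted p = 0.339). AZIP kidneys read 8.23, 8.17 and 8.16, against 7.96, 7.94 and 7.996 in FVB controls. Where its probes lie relative to the deleted part is unknown here, so it checks nothing and the genotypes rest on the labels.

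Loss of Pparg was accompanied by lower RNA of 3 of the 10 droplet genes, the coat genes Plin2 and Plin5 and the lipase gene Lipe, and none was called higher. Over all genes 5.29% were called in this comparison, 2.67% higher and 2.62% lower. In AZIP kidneys 0 of the 10 genes were called by limma, where 2.43% of all genes were called, 1.3% higher and 1.13% lower. At an unadjusted limma p under 0.05 there were 6 of the 10 in Pparg null kidneys and 4 in AZIP kidneys. The weakest of them was Pnpla2 in both, ranked 3935 and 2003 by p among all genes. The next of the 10 genes, above that threshold, were Cidea at rank 6021 and Mgll at rank 5715. The share of all genes at that unadjusted threshold was not counted. These ranks place it between 3935 and 6021 of 19938 genes in Pparg null kidneys. In AZIP kidneys they place it between 2003 and 5715. The 10 genes were not tested as a set. With the arrays shifted to equal medians, 436 genes were higher and 694 lower in Pparg null kidneys, against 532 and 523 as deposited, and 203 higher and 326 lower in AZIP kidneys, against 260 and 225. The calls among the 10 genes were the same under that shift. The median difference of the 10 genes was -0.14 in the Pparg null comparison and -0.08 in the AZIP comparison, beside -0.01 and 0.0028 over all genes. In the Pparg null comparison the groups did not overlap for 7 of the 10 genes, 2 higher and 5 lower, against 26.1% of all genes, 12.9% higher and 13.2% lower. In the AZIP comparison 2 did not overlap, both lower, against 22.5% of all genes, 11% higher and 11.5% lower.

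**Figure D1:**
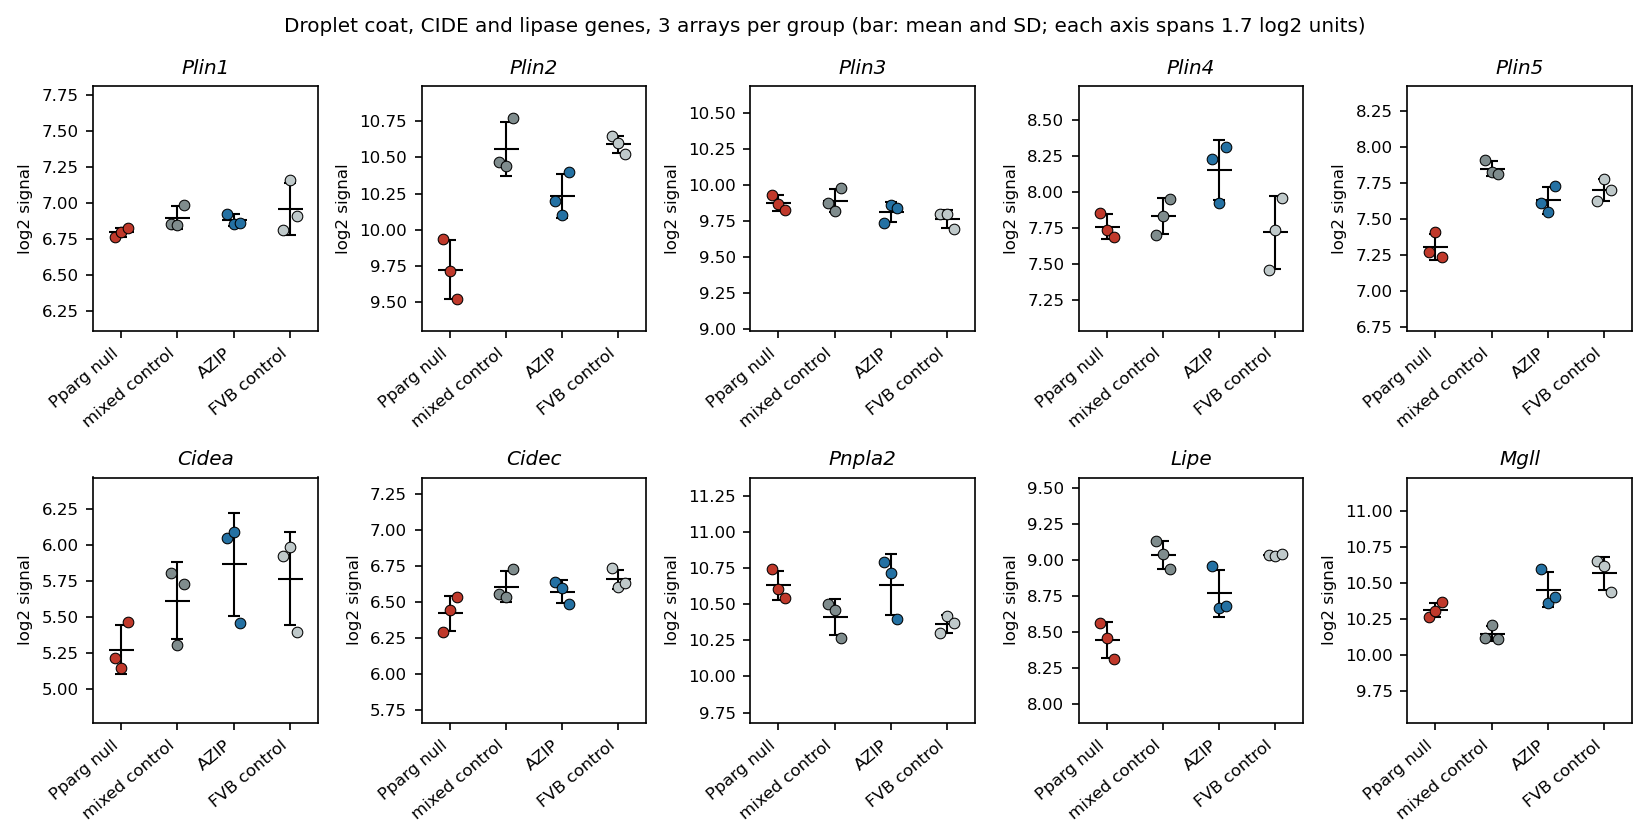
Log2 signal of each of the 10 genes (y axis, every panel spanning the same number of log2 units) on each array, by group (x axis), with bars for the mean and SD of 3 arrays. The Pparg null points of Plin2, Plin5 and Lipe lie below every other array of the same gene.

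Plin2, also known as adipophilin or ADRP, is the coat protein found on droplets of most cells outside fat. Its signal was 9.93, 9.71 and 9.52 on the Pparg null arrays, against 10.47, 10.44 and 10.77 on the mixed control arrays. The highest null array lay below the lowest control array. The difference was -0.84 ± 0.11, or 1.79-fold lower (limma adjusted p = 0.00288, n = 3 arrays each), and Plin2 ranked 77 by p among all genes. AZIP arrays read 10.20, 10.10 and 10.40, against 10.65, 10.60 and 10.53 for FVB controls. These groups did not overlap either, but the difference of -0.36 ± 0.11 was not called (limma adjusted p = 0.133, 95% interval -0.61 to -0.11). In order of level, FVB and mixed controls overlapped at the top, AZIP kidneys lay apart below both, and Pparg null kidneys lay apart below AZIP kidneys.

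Plin5, the perilipin of tissues that oxidise fat, which ties droplets to mitochondria, had the smallest p of the 10 genes. It read 7.27, 7.41 and 7.23 in Pparg null kidneys, against 7.91, 7.82 and 7.81 in mixed controls. The difference was -0.54 ± 0.07, or 1.46-fold lower (limma adjusted p = 0.00171, n = 3 arrays each), with rank 37 among all genes. In AZIP kidneys the signal was 7.61, 7.54 and 7.73, against 7.62, 7.78 and 7.70 in FVB controls. Those groups overlapped, and the difference was -0.07 ± 0.07 (limma adjusted p = 0.653, 95% interval -0.22 to 0.07).

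Lipe, which cleaves diglyceride after Pnpla2 has acted and is switched on by protein kinase A, was the 1 of the 3 lipases among the 10 genes that was called in a mutant. Its signal in Pparg null kidneys was 8.56, 8.46 and 8.31, against 9.13, 9.04 and 8.93 in mixed controls. All null arrays lay below all control arrays, with a difference of -0.59 ± 0.09, or 1.51-fold lower (limma adjusted p = 0.00368, n = 3 arrays each). AZIP kidneys read 8.96, 8.66 and 8.68, against 9.03, 9.03 and 9.04 in FVB controls. This gap of -0.27 ± 0.09 left the AZIP and FVB arrays without overlap and was not called (limma adjusted p = 0.134). Without AZIP 1, the array nearest to the controls, the difference was -0.36 and was called. Control levels were nearly equal on both backgrounds, at 9.03 ± 0.0073 for FVB and 9.04 ± 0.10 for mixed controls (SD, n = 3 each).

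The DNA just before the starts of these 3 genes is shown because their RNA fell together and PPAR receptors bind DNA as pairs with RXR, on 2 copies of a 6-base motif in the same direction with 1 base between them. The 250 bases before a start come from RefSeq on build GRCm38.p6, read 5′ to 3′ on the gene's own strand, which is the minus strand for all 3. They are chr4:86670060-86670309 for Plin2, chr17:56117549-56117798 for Plin5 and chr7:25395988-25396237 for Lipe, the last 2 before the more upstream of 2 annotated starts. Capitals mark the motif AGGNCA on either strand, so the reverse strand shows as TGNCCT.
Plin2: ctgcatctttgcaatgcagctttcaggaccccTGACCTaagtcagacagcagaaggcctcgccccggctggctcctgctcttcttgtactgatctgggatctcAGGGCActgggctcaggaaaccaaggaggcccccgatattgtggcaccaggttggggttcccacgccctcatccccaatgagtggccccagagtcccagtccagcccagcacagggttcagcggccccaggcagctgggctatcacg
Plin5: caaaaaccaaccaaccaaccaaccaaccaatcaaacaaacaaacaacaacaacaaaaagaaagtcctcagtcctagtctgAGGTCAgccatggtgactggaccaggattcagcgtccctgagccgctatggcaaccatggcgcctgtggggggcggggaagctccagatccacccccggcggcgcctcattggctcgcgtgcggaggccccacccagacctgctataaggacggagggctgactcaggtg
Lipe: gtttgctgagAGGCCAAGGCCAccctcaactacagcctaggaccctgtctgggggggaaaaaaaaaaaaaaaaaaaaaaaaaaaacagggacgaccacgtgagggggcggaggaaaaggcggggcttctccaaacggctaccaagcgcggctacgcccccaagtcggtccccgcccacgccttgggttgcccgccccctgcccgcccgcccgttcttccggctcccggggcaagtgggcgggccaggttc

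In Plin2 the reverse motif began 218 bases before the start and the forward one 147 bases before it. Plin5 had 1 motif, 170 bases before the upstream start, and 1 more 34 bases before the other start. In Lipe a pair of motifs in the same direction began 240 bases before the upstream start, with no base between them. The other start had 1 motif at 219 bases. The full direct repeat with 1 base between its copies was in 0 of 13 windows of 9 of the genes, and in 0.338% of all 32851 windows. A single motif was in 6 of these 9 genes, Plin1, Plin3 and Cidec being the others, against 54.8% of all genes, and it was in 51.3% of all windows. Windows of Plin4, Pnpla2 and Mgll held none, and Cidea had no entry. A match or its absence in so short a window is a description of the letters and says nothing of binding by a receptor.

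The other perilipins were not called in either mutant. Plin1, the coat protein of fat cell droplets, read 6.76, 6.80 and 6.83 in Pparg null kidneys, against 6.85, 6.85 and 6.99 in mixed controls. The null arrays all lay below the control arrays, yet the difference of -0.10 ± 0.08 was close to its error (limma adjusted p = 0.519). In AZIP kidneys Plin1 differed by -0.08 ± 0.08 with overlapping groups. Plin3, the coat protein also called TIP47 that moves from the cytosol to new droplets, had the smallest spread of the 10 genes, a pooled SD within groups of 0.0657. Its differences of -0.02 ± 0.06 and 0.05 ± 0.06 in the Pparg null and AZIP comparisons had 95% intervals of -0.14 to 0.11 and -0.08 to 0.17. Plin3 was the coat gene whose change was bounded most narrowly.

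Plin4, a perilipin with a long repetitive stretch that coats newly formed droplets, had its highest signals in AZIP kidneys. They were 8.23, 7.92 and 8.31, against 7.46, 7.74 and 7.96 in FVB controls. The lowest AZIP array lay below the highest control array, and the difference of 0.43 ± 0.13 was not called (limma adjusted p = 0.0997, 95% interval 0.16 to 0.71). In Pparg null kidneys Plin4 read 7.85, 7.73 and 7.69, against 7.70, 7.83 and 7.95 in mixed controls, which overlap with a difference of -0.07 ± 0.13. Plin4 and Plin2 therefore had differences of opposite sign in AZIP kidneys, at 0.43 and -0.36, neither of them called.

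Neither CIDE gene was called in a mutant. Cidea read 5.21, 5.14 and 5.46 in Pparg null kidneys, against 5.80, 5.31 and 5.73 in mixed controls, a difference of -0.34 ± 0.20 with overlap (limma adjusted p = 0.372). AZIP kidneys read 6.05, 6.09 and 5.46, against 5.92, 5.98 and 5.39 in FVB controls, a difference of 0.10 ± 0.20. Its pooled SD within groups, 0.288, was the largest of the 10 genes. Cidea is also a marker of brown fat, and in 3 of the 4 groups the array with the lowest Cidea signal also had the lowest signal of Ucp1, the uncoupling protein of brown fat, and of Cox8b. The rest of the brown fat list did not follow Cidea in this way. Ppargc1a, Zic1 and Cox7a1 shared its lowest array in no group, and Elovl3, Dio2 and Otop1 in some groups. Ppargc1a and Cox7a1 were highest on AZIP 3 and FVB control 3, where Cidea was lowest. In AZIP kidneys Ucp1 read 6.43, 7.39 and 5.44 and Cox8b 6.78, 7.27 and 6.15 on the same 3 arrays. In Pparg null kidneys Cox8b and Ucp1 lay below all mixed controls, with differences of -0.71 ± 0.28 and -0.51 ± 0.35 that were not called (limma adjusted p = 0.173 and 0.459). In AZIP kidneys their differences were -0.24 ± 0.28 and 0.61 ± 0.35, with overlap. Ucp1 and Cox8b were picked out after their values were seen, and the part of brown fat in the Cidea signal was not tested.

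Cidec, known as FSP27 in mice, the protein that makes the single large droplet of white fat cells, read 6.29, 6.44 and 6.53 in Pparg null kidneys, against 6.55, 6.53 and 6.73 in mixed controls. The nearest arrays of the groups almost touched, and the difference of -0.18 ± 0.07 was not called (limma adjusted p = 0.195). In AZIP kidneys the difference was -0.08 ± 0.07 (limma adjusted p = 0.649).

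Pnpla2 and Mgll, the enzymes at either end of the lipolytic chain, were not called in either mutant. Pnpla2 read 10.74, 10.61 and 10.54 in Pparg null kidneys, against 10.51, 10.46 and 10.27 in mixed controls. The null arrays lay above the control arrays by 0.22 ± 0.10, which was not called (limma adjusted p = 0.235, 95% interval 0.0043 to 0.44). AZIP arrays read 10.79, 10.72 and 10.40, against 10.30, 10.42 and 10.37 in FVB controls. That difference was 0.27 ± 0.10, with AZIP 3 inside the control range (limma adjusted p = 0.188). Pnpla2 was thus the one gene of the 10 with a difference above 0 in both mutants by more than its error, and it passed the threshold in neither.

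Mgll, which also degrades the endocannabinoid 2-arachidonoylglycerol, read 10.27, 10.31 and 10.37 in Pparg null kidneys, against 10.12, 10.21 and 10.12 in mixed controls. Without overlap, the difference was 0.17 ± 0.07 (limma adjusted p = 0.220). AZIP kidneys read 10.60, 10.37 and 10.41, against 10.65, 10.62 and 10.44 in FVB controls, a difference of -0.11 ± 0.07 with overlap. Mgll was the 1 droplet gene called between the control backgrounds, where 7.22% of all genes were called, 3.5% higher and 3.72% lower. FVB controls were higher than mixed controls by 0.42 ± 0.07, or 1.34-fold (limma adjusted p = 0.00417). Whether this differs in size from the Mgll values in the mutants was not tested. The other 9 genes were not called between the controls, with 2 of them, Plin3 at -0.13 ± 0.06 and Plin5 at -0.15 ± 0.07, lower in FVB controls without overlap. The control groups did not overlap for 3 of the 10 genes, against 28.5% of all genes, 15.8% higher and 12.7% lower. This strain contrast uses the same control arrays as the mutant comparisons, so its values stand beside theirs and are not independent of them.

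**Figure D2:**
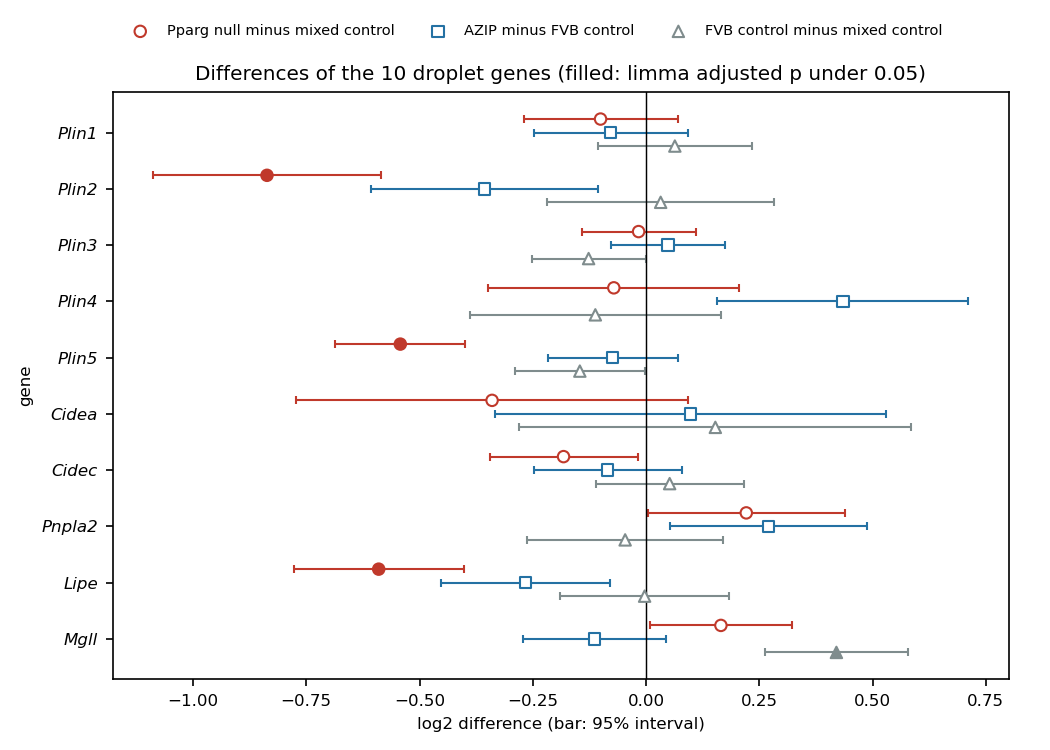
Log2 difference (x axis) of each of the 10 genes (y axis) for Pparg null minus mixed control, AZIP minus FVB control and FVB control minus mixed control, with bars for the 95% interval from limma and filled symbols for calls. Plin2, Plin5 and Lipe are filled at -0.84, -0.54 and -0.59 in the Pparg null comparison, no gene is filled in the AZIP comparison, and Mgll is filled at 0.42 between the controls.

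Whether the droplet genes responded differently to the loss of Pparg and to AZIP was tested directly, as the Pparg null difference minus the AZIP difference. Limma called 0 of the 10 genes and 0.0201% of all genes, 0.01% above 0 and 0.01% below. At an unadjusted p under 0.05 there were 5 of the 10, and the weakest of them, Lipe, ranked 486 by p among all genes. The share of all genes at that unadjusted threshold was not counted here either. The ranks place it between 486 and 3220 of 19938 genes, the latter being the rank of Cidea, the next of the 10. No set test was made of the 10 genes. For Plin5 the gap was -0.47 ± 0.09 (limma adjusted p = 0.332), the 16th smallest p of all genes. For Plin2 it was -0.48 ± 0.16 and for Lipe -0.32 ± 0.12 (limma adjusted p = 0.817 and 0.834). Plin4 (-0.51 ± 0.18) and Mgll (0.28 ± 0.10) also had intervals that left out 0 before adjustment. The calls in one mutant and not in the other are therefore not shown to differ. The same sign was found in both mutants for 6 of the 10 genes, 5 below 0 and Pnpla2 above it, and opposite signs for 4. How many of all genes had the same sign was not counted. Plin1, among the 6, changed sign in the AZIP comparison when FVB control 2 was left out.

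The RNA came from whole kidney, so fewer cells of a type and less RNA per cell cannot be told apart. Proximal tubule markers had lower mean signals in both mutants. Over 8 markers the mean was 11.93 to 12.10 in Pparg null kidneys and 12.15 to 12.28 in mixed controls, without overlap, and 12.09 to 12.22 in AZIP kidneys against 12.29 to 12.35 in FVB controls, again without overlap. None of the 8 was called by limma in either comparison, and the median difference was -0.16 in Pparg null and -0.14 in AZIP kidneys. The part of this shift in the lower Plin2, Plin5 and Lipe signals was not tested. Macrophages also carry Plin2, and their 5 markers averaged 7.90 to 8.48 in Pparg null kidneys, against 7.80 to 8.03 in mixed controls, and 7.39 to 7.91 in AZIP kidneys against 7.50 to 7.60 in FVB controls, with 0 called by limma in either comparison. Called in Pparg null kidneys were 1 of 6 markers of distal nephron and collecting duct, the water channel Aqp2 (0.48), 1 of 3 podocyte markers, Wt1 (0.29), and 1 of 8 adrenal cortex markers, the ACTH receptor Mc2r (0.42), with limma adjusted p-values of 0.0220, 0.0169 and 0.0244. In AZIP kidneys Wt1 was called (0.28, limma adjusted p = 0.0308), and Aqp2 and Mc2r, at 0.25 and 0.32, were not. Of all genes, 5.29% were called in the Pparg null comparison and 2.43% in the AZIP comparison. In Pparg null kidneys the adrenal list had 3 markers above 0 and 5 below, the distal list 3 and 3, and the podocyte list 2 and 1. Mc2r had a low signal, at percentile 9.6 of mean level. Aqp2, Wt1 and Mc2r thus do not stand for their whole lists. Each of these marker calls was lost with some arrays left out: Aqp2 without Pparg null 2 or 3 or either of mixed controls 1 and 3, Wt1 without mixed control 1 or 2, Mc2r without Pparg null 2 or any 1 mixed control, and Wt1 in AZIP kidneys without any array but AZIP 1. Their part in the signals of the droplet genes was not tested.

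Fat that clings to the kidney could carry Plin1, Cidec, Lipe and Cidea, so fat markers outside the 10 genes were read on each array. Adipoq, the fat cell hormone adiponectin, read 4.28, 4.30 and 4.38 in Pparg null kidneys, against 4.60, 4.33 and 4.43 in mixed controls. Its AZIP signals were 4.47, 4.61 and 4.28, against 4.47, 4.51 and 4.42 in FVB controls. In Pparg null kidneys Adipoq and Lep, which encodes leptin, were both at -0.13, and in AZIP kidneys at -0.01 and -0.03, none called. Both genes had low signals, at percentiles 8.6 and 16.0 of mean level, so such small differences say little about the amount of fat. The mean of 6 white fat markers was 6.48 to 6.58 in Pparg null kidneys and 6.60 to 6.73 in mixed controls, without overlap, and 6.69 to 6.85 in AZIP kidneys against 6.62 to 6.71 in FVB controls. Limma called 0 of these 6 in both comparisons, with a median of -0.13 and of 0.12. Fabp4, which capillary endothelium also makes, had the largest difference of the 6 in Pparg null kidneys, -0.34, with limma adjusted p = 0.0573. The 8 brown fat markers other than Cidea averaged 6.89 to 6.997 in Pparg null kidneys and 6.98 to 7.16 in mixed controls, and 7.06 to 7.40 in AZIP kidneys against 7.07 to 7.15 in FVB controls. The 1 called in each comparison was Ppargc1a, a coactivator that kidney also makes, which rose by 0.28 and 0.26 (limma adjusted p = 0.00878 and 0.0202), the AZIP call being lost without AZIP 3 or FVB control 1 or 2. The part of fat tissue in the Lipe signal was not tested.

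**Figure D3:**
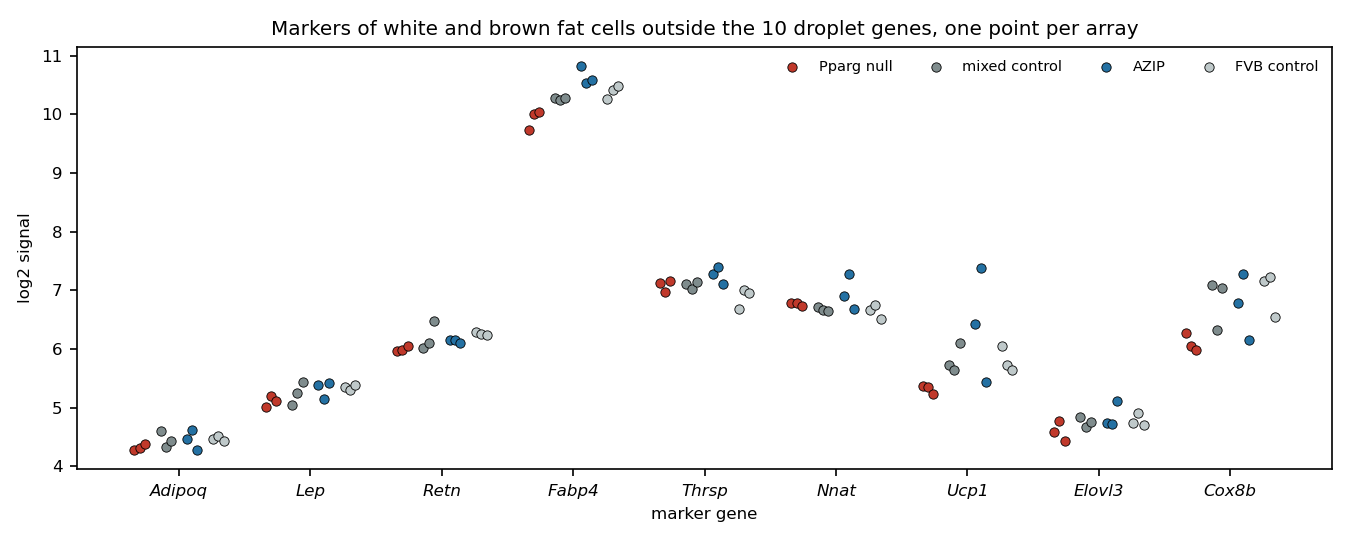
Log2 signal (y axis) of 9 markers of white and brown fat cells that are not among the 10 droplet genes (x axis), 1 point per array, coloured by group. The 9 are the 6 measured white fat markers and Ucp1, Elovl3 and Cox8b of the 8 brown fat markers. Not drawn are Dio2, Ppargc1a and Zic1, with higher means in Pparg null kidneys than in mixed controls, and Otop1 and Cox7a1, with lower means. Adipoq and Lep lie at -0.13 in Pparg null kidneys and at -0.01 and -0.03 in AZIP kidneys relative to their controls, while Ucp1 spans 5.44 to 7.39 over the 3 AZIP arrays.

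Proteins that steer the lipases and shape droplets were examined as a list of 26 genes, 23 of them measured. In Pparg null kidneys 1 was higher and 2 lower by limma, with a median of 0.02, and in AZIP kidneys 0 were higher and 2 lower, with a median of -0.02. These 2 comparisons called 5.29% and 2.43% of all genes. G0s2, the protein that binds Pnpla2 and inhibits it, fell in both, with a difference of -0.39 ± 0.06 in Pparg null kidneys (limma adjusted p = 0.00382) and of -0.27 ± 0.06 in AZIP kidneys (limma adjusted p = 0.0323). The AZIP call was lost without AZIP 1 or 2 or any 1 FVB control (highest limma adjusted p 0.133). Abhd5, the coactivator of Pnpla2 also called CGI-58, was at -0.12 ± 0.04 and -0.18 ± 0.04 and was not called (limma adjusted p = 0.170 and 0.0591); it was named after its values were seen. Fitm2, which helps droplets bud from the endoplasmic reticulum, fell by 0.29 ± 0.06 in Pparg null kidneys, a call that ended when Pparg null 2 or 3, or mixed control 1 or 3, was left out (highest limma adjusted p 0.0820). Cideb, the CIDE protein of liver, fell by 0.24 ± 0.05 in AZIP kidneys, a call lost without any 1 of the 6 arrays (highest limma adjusted p 0.130). Cavin1, a caveola protein, was the gene that rose in Pparg null kidneys (0.24 ± 0.06), a call lost without any array but Pparg null 1 (highest limma adjusted p 0.160).

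Other enzymes that split neutral lipids moved in both directions in Pparg null kidneys, with 2 of 18 measured (19 listed) higher and 4 lower by limma and a median of 0.02. That comparison called 2.67% of all genes higher and 2.62% lower, and the AZIP comparison called 2.43% of them. Lipa, the acid lipase that digests droplets delivered to the lysosome, fell by 0.48 ± 0.07 in Pparg null kidneys (limma adjusted p = 0.00391). The carboxylesterase Ces1e and Lipg, the endothelial lipase that acts on HDL outside the cell, rose by 0.71 ± 0.11 and 0.71 ± 0.12 (limma adjusted p = 0.00541 and 0.0083). Pnpla8 (-0.17), Ddhd2 (-0.19) and Aadac (-0.25) made up the rest, and each lost its call without at least 5 of the 6 arrays in turn. In AZIP kidneys Lipa alone was called, at -0.38 ± 0.07 (limma adjusted p = 0.0202), a call lost without AZIP 3 or FVB control 1 or 2 (highest limma adjusted p 0.0931). Lipa, Ces1e, Lipg and Aadac also differed between the controls, by -0.41, 0.65, 0.79 and -0.46 in FVB relative to mixed controls.

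For the next 2 lists the share called over all genes was again 5.29% in Pparg null kidneys and 2.43% in AZIP kidneys. Of 13 measured genes, out of 19 listed, that carry hormone signals to lipolysis or handle glycerol, 1 was lower and 0 higher in Pparg null kidneys and 0 were called in AZIP kidneys. The called gene was Gpd1, glycerol-3-phosphate dehydrogenase, at -0.34 ± 0.08, a call that ended on leaving out Pparg null 2 or 3, or mixed control 1 or 2 (highest limma adjusted p 0.116). Among 12 measured genes of triglyceride assembly, of 13 listed, Lpin1, the phosphatidate phosphatase that makes diglyceride, was called in both comparisons. It rose by 0.62 ± 0.15 in Pparg null kidneys (limma adjusted p = 0.0351) and by 0.86 ± 0.15 in AZIP kidneys (limma adjusted p = 0.0154). The first call was lost without any array but Pparg null 3 (highest limma adjusted p 0.118) and the second without AZIP 2 or any 1 FVB control (highest limma adjusted p 0.0609).

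Known PPAR targets outside the 10 genes had more calls than any of the other 4 lists around the droplet in Pparg null kidneys. The lists differ in size, and 5.29% of all genes were called in that comparison, 2.67% higher and 2.62% lower. In the AZIP comparison the share was 2.43%. In Pparg null kidneys 12 of 22 measured (26 listed) were lower and 1 higher by limma, with a median of -0.42, and 4 of the 13 kept their call with each of the 6 arrays left out. Of the 12 lower genes, 5 stayed called without Pparg null 3 or without mixed control 1, 8 without Pparg null 2 or mixed control 2, and 10 without either of the other arrays. The 4 that kept their call with each of the 6 arrays left out included Pdk4, a brake on the use of pyruvate (-1.50 ± 0.23). The others were the acyl-CoA thioesterases Acot3 (-1.02 ± 0.16) and Acot4 (-0.54 ± 0.06), and the pantetheinase Vnn1 (-0.62 ± 0.11). Acot genes have close relatives, so a probe set may read more than 1 of them. The gene that rose was Aqp3, the glycerol and water channel of the collecting duct (0.42 ± 0.09), a call lost without any array but Pparg null 1 (highest limma adjusted p 0.0987). In AZIP kidneys 1 of the 22 was called, Acot4 at -0.54 ± 0.06 (limma adjusted p = 0.00429), with a list median of -0.17. In Pparg null kidneys this list ran from -1.50 to 0.42. The differences of all 10 droplet genes lay within that range, Plin2 (-0.84) and Plin5 (-0.54) included. The range therefore does not set these 2 apart from the other droplet genes.

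**Figure D4:**
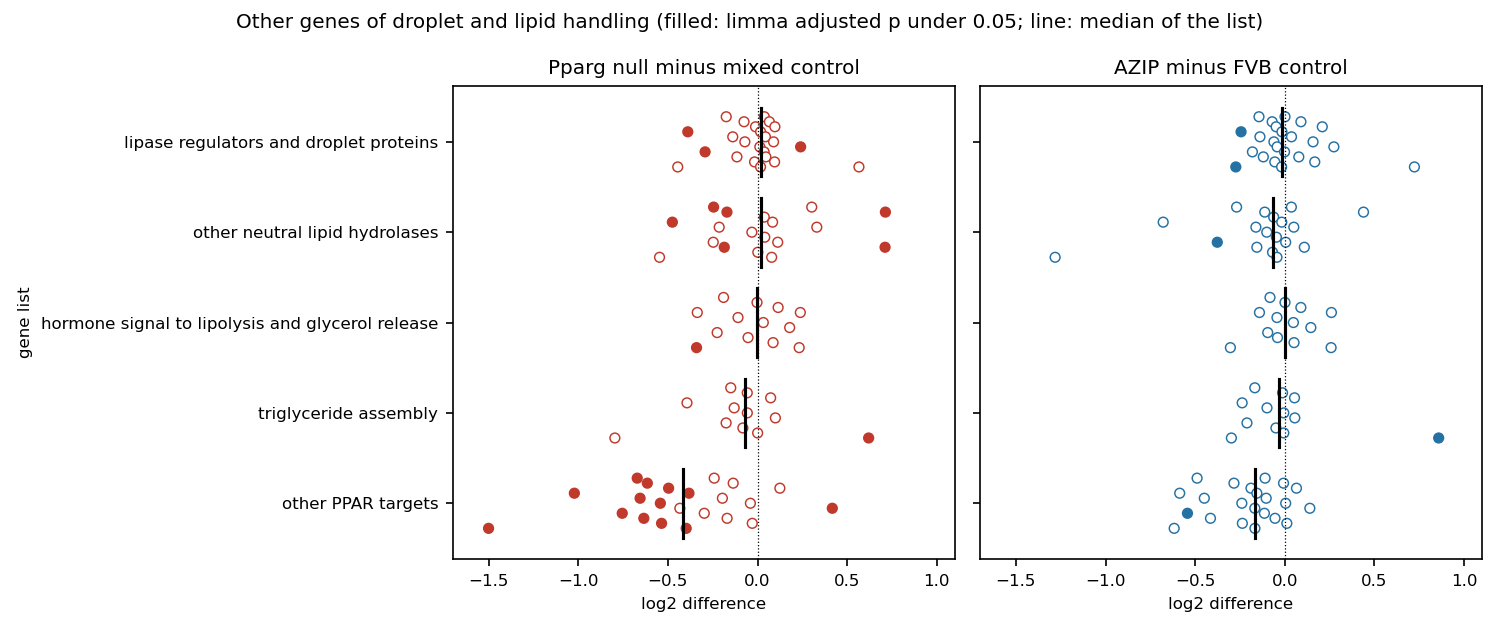
Log2 difference (x axis) of every measured gene of 5 lists around the droplet (y axis), for Pparg null minus mixed control at left and AZIP minus FVB control at right, with filled points for calls and a line at each list's median. In Pparg null kidneys 20 of the 22 PPAR targets stand to the left of 0, with a median of -0.42, while the medians of the other 4 lists lie between -0.07 and 0.02.

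For the 3 called genes the genes with the most similar pattern were sought, by the root mean square difference over the 12 arrays after each gene was centred on its own mean. For Plin2, whose SD over the 12 arrays was 0.39, they were the formin Fmnl1 (0.148), Tm6sf2, which helps load lipid onto lipoproteins in liver (0.161), and Osgin1 (0.165). For Plin5, with an SD of 0.218, they were Hsdl2, a peroxisomal dehydrogenase-like protein (0.067), Pank1, which makes the precursor of coenzyme A (0.0816), and the zinc finger gene Zfp72 (0.0907). For Lipe, with an SD of 0.271, they were the peroxisomal NADH hydrolase Nudt12 (0.0729), Slc22a5, the carnitine transporter (0.0767), and the nuclear receptor Hnf4g (0.0811). None of the other 9 droplet genes was among the 3 nearest of any of them.

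**Figure D5:**
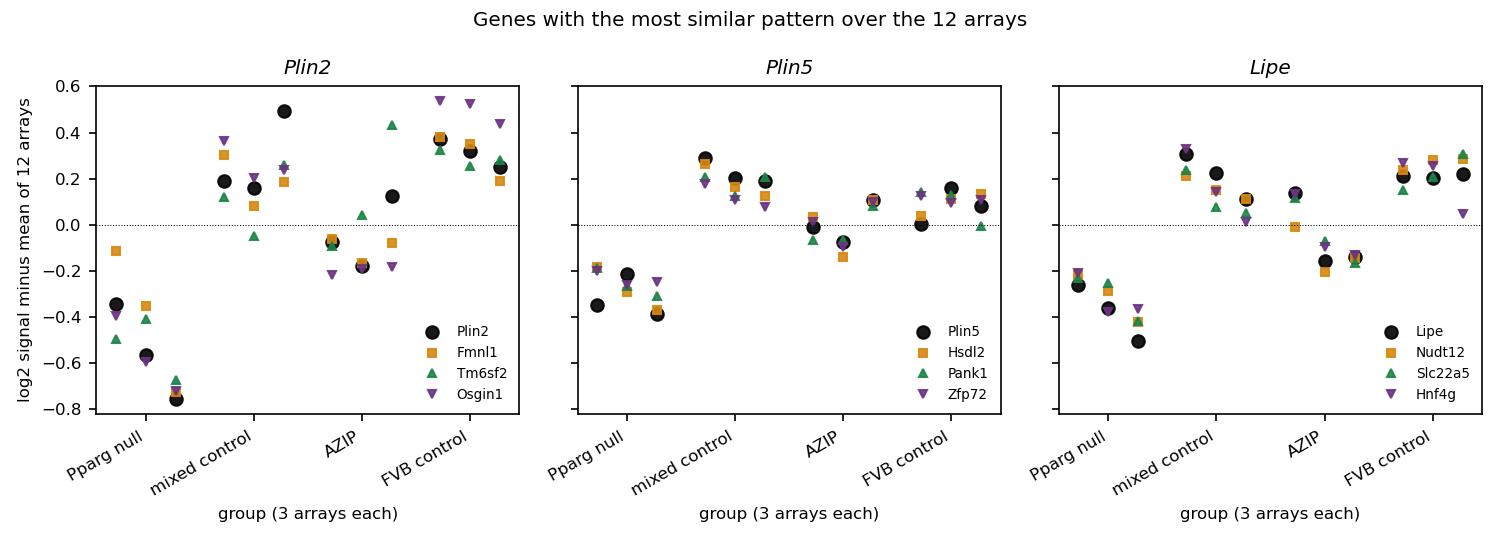
Log2 signal minus the mean of 12 arrays (y axis) for Plin2, Plin5 and Lipe and, in each panel, the 3 genes with the smallest root mean square difference, 1 point per array by group (x axis). The Pparg null points lie below 0 in all 3 panels, and the AZIP points of Lipe lie lower than its FVB control points.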

How the data were processed

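Total RNA of whole kidney was amplified, labelled with biotin and read on Affymetrix arrays. RMA and Affymetrix Expression Console are the tools in the submitters' processing notes. The deposited log2 values, 1 per probe set and array, come from the authors' processing, whose background and normalization settings, software versions and annotation build the sources used here do not state. They entered the fits unchanged. Nothing says that the pools came from separate litters, so p-values reflect the spread between pools, and the number of arrays limits the precision.

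The platform table gave 21789 of 35556 probe sets a single symbol, 1621 several and 12146 none. Entrez numbers of 21698 matched a RefSeq gene table, and 0 symbols changed. Where a gene had more than 1 probe set (999 genes), the one with the highest mean stayed, which left 19938 genes. One model of the 4 group means was fitted with limma (version 3.58.1, R 4.3.3), with the Benjamini-Hochberg adjustment taken over all genes and a threshold of 0.05. The moderated variance had 3.71 prior and 8 residual degrees of freedom. The fit was tested on simulated data.

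The 10 genes and all lists were chosen with earlier results of these data known. By rule, all 10 genes are described, list genes past the threshold in either mutant may be named, as may defining cell markers, and each called droplet gene is given its 3 nearest genes in pattern, predicted genes aside. Abhd5 falls outside this rule. Listed genes without a single-symbol probe set were not analysed here. Proteins were not described because no sequences were at hand. The closing section gives the effect of repeated quantile normalization, equal medians, dropping genes under percentile 25 of mean expression, averaging probe sets, testing every probe set, fitting just the compared groups, a variance trend, robust variance, a replicate block and leaving out each array.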

Additional observations from a re-analysis of the deposited data

How the results depend on the processing

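The calls of Plin2, Plin5 and Lipe in Pparg null kidneys and of Mgll between the controls held under all 9 alternatives other than leaving out an array and with each of 6 arrays left out, so those counts stayed at 3 and 1. The highest limma adjusted p of the 4 genes over the 9 alternatives was 0.0211. With 1 array left out, the count was 0 to 1 in the AZIP comparison, the 1 being Lipe without AZIP replicate 1, and 0 for the difference between the mutants. Reversed signs touched only values that were not called: between the controls Lipe was at 0.0058 with arrays shifted to the same median, against -0.0032 as reported, and with 1 array left out Lipe ranged from -0.054 to 0.043, Plin1 from -0.036 to 0.14, Plin2 from -0.028 to 0.14, Plin4 from -0.23 to 0.019, Cidea from -0.00093 to 0.34 and Pnpla2 from -0.12 to 0.00074. In the same way Plin3 ranged from -0.053 to 0.027 in Pparg null kidneys, Plin1 from -0.15 to 0.022 and Cidea from -0.088 to 0.30 in AZIP kidneys, and Plin1 from -0.12 to 0.051 and Pnpla2 from -0.17 to 0.030 for the difference between the mutants. Cidea lay under percentile 25 of mean expression and was not tested in that alternative.

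Over all genes the share called moved more, from 1.66% (330 genes, without mixed control 1) to 9.26% (with low genes left out) in the Pparg null comparison and from 0.311% (62 genes, without FVB control 1) to 4.77% in the AZIP comparison. With only the compared groups in the fit 607 and 162 genes were called, and over all probe sets 805 and 176, against 1055 and 485 as reported. The AZIP calls of G0s2, Cideb, Lipa, Ppargc1a and Wt1 were lost under both of these, and those of Pnpla8, Ddhd2 and Aadac in Pparg null kidneys under both and under the replicate block. All probe sets together also ended the Pparg null calls of Lpin1, Gpd1, Aqp3, Cavin1, Mc2r, Cyp4a10, Cyp4a14 and Acot2, and the fit of the compared groups those of Cavin1, Mc2r and Acaa1b, so that 9 and 11 of the 12 lower PPAR targets stayed called. Repeated quantile normalization and equal medians ended the call of Cavin1. No fit with only the compared groups exists for the difference between the mutants. The replicate block left the counts of droplet genes at 3, 0, 0 and 1 for the Pparg null, AZIP, between-mutant and control comparisons, with 1102 and 694 genes called in the first and second over all genes. Arrays with the same number correlated in their deviations at 0.184, 0.179 and 0.0086 for the Pparg null pairs and at -0.04, -0.10 and -0.0099 for the AZIP pairs. Pparg null 1 and 2 correlated best with the mixed control of their own number, and Pparg null 3 and all AZIP arrays with a control of another number. Groups of 3 arrays are too small to tell from this whether the numbers pair the arrays. The replicate block also ended the call of Gpd1.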
